A study of Mus musculus with 8 samples.

Results

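Axon guidance ligands and receptors are described here as they were transcribed in mouse sensory neurons with axons in the skin of the hindpaw and the muscle of the thigh. The set was defined by gene symbol alone: the semaphorins of classes 3 to 7, the A, B, C and D plexins, the neuropilins, the A and B ephrins and their Eph receptors, the netrins with the Unc5 receptors and Dcc, and the Slits with the Robos. By this rule 69 of the 22609 gene symbols counted in every library were members, 35 of them ligands and 34 receptors or co-receptors, and no expression value entered the choice. The cells came from dorsal root ganglia (DRG), where the cell bodies of spinal sensory neurons lie. The lectin conjugate WGA-Alexa 488 was injected into the paw and the thigh, was carried back to the ganglia by the axons, and fluorescent neurons were sorted before RNA was amplified with the Smart-seq2 method. There were 4 female and 4 male libraries.

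All mice were C57BL/6J, 8 to 12 weeks of age and naive apart from the tracer injection, and the females were taken in the estrous phase. Each sample held 6 lumbar ganglia from the left and right sides. This is what a single mouse has at the levels taken, although the labels, which number the samples n1 to n4, name no animal. The p-values below measure the spread between these samples. Skin and muscle afferents were not separated, so a level is an average over both, and in bulk RNA fewer cells of a type cannot be told apart from less RNA per cell.

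Guidance cues steer growing axons by attraction or repulsion, and the growth cone reads them through matched receptor families. Secreted class 3 semaphorins bind neuropilins, which signal through plexins, whereas most membrane semaphorins bind plexins directly. Ephrins stay on the cell surface and bind Eph receptor tyrosine kinases, netrin-1 attracts through Dcc and repels through Unc5 receptors, and Slits repel through Robos. In adult ganglia the same molecules are known for roles in axon maintenance, regrowth and contact between neurons and glia.

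Both sexes had a library that stood apart, female replicate 4 and male replicate 1, and their values are given first. Depth ranged from 4.80 to 7.33 M gene reads per library (M, 1000000 reads), so that 3 reads corresponded to 0.409 to 0.625 reads per M gene reads (CPM). Members together took 0.185 to 0.190% of gene reads in the 4 male libraries and 0.209% in female replicate 1, but 0.116% in female replicate 4. Pan-neuronal markers scored 9.72 to 10.02 in females and 9.80 to 9.82 in males as the mean of log2(CPM + 1), and all 15 genes of that list were detected. The glial score was 7.30 to 7.54 in females and 6.37 to 7.25 in males, with no overlap, and its 14 counted markers summed to 11778 to 15186 CPM in females and 5594 to 11351 CPM in males. Male replicate 1 had the lowest glial score (6.37), fibroblast score (2.13) and myelinated-neuron score (5.19) of the 8 libraries. Skeletal muscle markers summed to 3.99 to 5.22 CPM in females and 1.82 to 2.87 CPM in males, with Tnnt3 at 0 in every library.

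The members spanned a wide range of levels. Per kilobase (kb) of exon, 11 members had a mean over 10 CPM, 26 lay between 1 and 10, 22 between 0.1 and 1, and 10 at or below 0.1 CPM per kb. The 10 highest members held 66.5% of the summed level of all 69. Reads were found in all 8 libraries for 56 members, and 4 members (Efna4, Ntn4, Robo3 and Sema3a) had no more than 3 reads in any library. The highest level was that of the ephrin ligand Efna1, at 45.7 ± 7.10 CPM per kb (SD over 8 libraries), above 91.1% of the genes with reads.

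**Figure D1:**
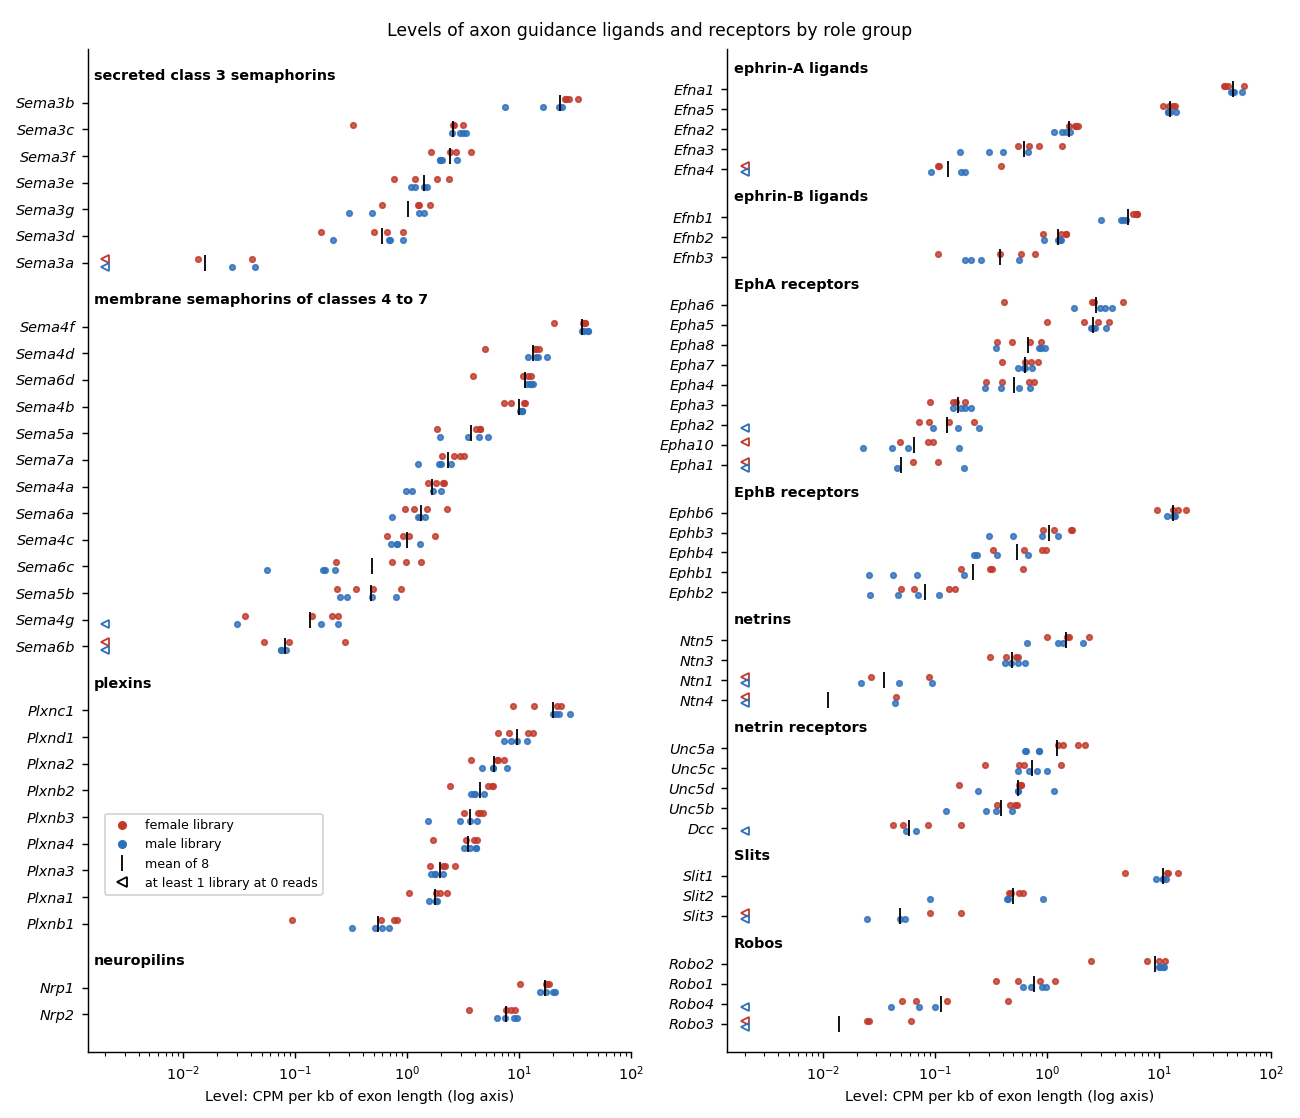
Level of each of the 69 members in each library, in CPM per kb of exon on a log axis, grouped by role, with red points for female and blue points for male libraries, black ticks for the mean of 8 and open triangles where at least 1 library held no reads. The leading member of each of the 12 groups ranges from Efna1 at 45.7 down to Unc5a at 1.22 CPM per kb.

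Among the secreted class 3 semaphorins, Sema3b held 74.1% of the summed level. Its CPM values were 110, 119, 109 and 143 in female replicates 1 to 4 and 31.7, 95.7, 103 and 69.1 in male replicates 1 to 4. It lay above the next member, Sema3c, in all 8 libraries with no overlap of ranges (22.9 ± 7.94 against 2.57 ± 0.956 CPM per kb, SD over 8 libraries). Sema3c, Sema3f, Sema3e, Sema3g and Sema3d followed between 2.57 and 0.597 CPM per kb, and each of these neighbours overlapped the next. Sema3a, the classical repellent of sensory axons, was at 0 to 3 reads per library.

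Of the 13 membrane semaphorins, Sema4f was the most abundant at 36.5 ± 6.69 CPM per kb and did not overlap the next. Its CPM was 192, 199, 199 and 106 in females and 212, 185, 196 and 212 in males, so that female replicate 4 alone was low. Sema4d, the ligand of plexin-B1, Sema6d, a ligand of A plexins, and Sema4b followed at 13.3, 11.2 and 10.02 CPM per kb. These 3 overlapped one another and Sema4b stood clear of Sema5a (3.73 CPM per kb). Sema7a, a lipid-anchored semaphorin that binds plexin-C1, reached 2.31 ± 0.638 CPM per kb.

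On the receptor side all 9 plexins had reads in every library. Plxnc1, the receptor of Sema7a, led with 19.9 ± 6.11 CPM per kb and 38.8% of the group. It lay above Plxnd1 in each of the 8 libraries, although the ranges of the pair over libraries overlapped (8.71 to 28.1 against 6.44 to 13.2 CPM per kb). The A plexins, which pair with neuropilins, ran in the order Plxna2, Plxna4, Plxna3 and Plxna1, from 5.97 to 1.76 CPM per kb. Plxnb1, the receptor of Sema4d, was the lowest plexin at 0.545 ± 0.239 CPM per kb. Both neuropilins were well detected, with Nrp1 at 17.1 ± 3.36 and Nrp2 at 7.61 ± 1.97 CPM per kb of exon, where their ranges did not overlap. With the longest transcript as gene length Nrp2 was at 10.8 ± 2.79 and Nrp1 was unchanged, and overlap was not checked with that length. Nrp1, which binds class 3 semaphorins and VEGF, had 101, 103, 108 and 59.5 CPM in females and 119, 101, 89.8 and 124 CPM in males.

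Ephrin-A ligands were ordered Efna1, Efna5, Efna2, Efna3 and Efna4. Efna1 had 68.7, 75.3, 71.2 and 105 CPM in females and 99.7, 85.0, 83.7 and 80.8 CPM in males. Efna5, a ligand known from topographic mapping, was the steadiest of the 51 members tested between the sexes: it stayed at 43.4 to 57.0 CPM over the 8 libraries, with an SD of 8.86% of its mean against a median of 30.6%. Ephrin-B ligands were led by Efnb1 (5.29 ± 1.17 CPM per kb), with Efnb2 at 1.25 and Efnb3 at 0.383 CPM per kb and no overlap between neighbours.

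The EphA receptors all lay below the ligands Efna1 and Efna5, and no EphA mean exceeded 2.75 CPM per kb of exon. With the longest transcript as gene length Epha5 was at 5.00 and Epha6 at 3.71 CPM per kb, still below both ligands. Epha6 and Epha5 could not be ordered: Epha6 averaged 2.75 ± 1.30 and Epha5 2.57 ± 0.789 CPM per kb, and Epha6 was the higher in 4 of 8 libraries. Epha6 had 25.0, 13.9, 13.3 and 2.19 CPM in females and 9.14, 19.9, 17.5 and 15.5 CPM in males, the widest fall in female replicate 4 of any leading member. Among EphB receptors, Ephb6, which lacks kinase activity, made up 87.7% of the level. It was measured at 64.9, 49.8, 56.0 and 35.9 CPM in females and 50.6, 51.2, 43.9 and 52.7 CPM in males. Ephb3, Ephb4, Ephb1 and Ephb2 lay between 1.04 and 0.0815 CPM per kb.

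Netrins were scarce, as were their receptors. Ntn5 led at 1.48 ± 0.554 CPM per kb with 7 to 22 reads per library, and Ntn1 was at 0.0347 CPM per kb. Ntn5 counted 2.47, 1.56, 3.75 and 2.36 CPM in females and 2.18, 3.27, 1.98 and 1.04 CPM in males. It shares 407 exon bases with Sec1 on the other strand, which had 2 to 7 reads, and the strand setting of the counting was not given in the sources used here. Of the receptors, Unc5a, Unc5c, Unc5d and Unc5b lay between 1.22 and 0.390 CPM per kb with overlapping ranges, and Dcc, the attractive netrin receptor, was at 0 to 10 reads per library.

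The Slits and the Robos each rested on 1 gene. Slit1 held 95.2% of the Slit level, with 87.7, 71.7, 70.0 and 29.6 CPM in females and 63.9, 68.2, 64.2 and 55.0 CPM in males. Robo2 held 91.1% of the Robo level, with 187, 166, 128 and 40.6 CPM in females and 182, 168, 179 and 166 CPM in males. Per kb of exon Slit1 was at 10.8 ± 2.81 and Robo2 at 9.21 ± 2.94. With the longest transcript as gene length they were at 11.2 ± 2.93 and 18.7 ± 5.97, so that their order depended on the length used. Robo4, known from blood vessels, and Robo3, known from commissural axons, had means of 0.113 and 0.0140 CPM per kb.

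Sex was then compared with the quasi-likelihood test of edgeR on the counts, and differences are given as log2 of the female over the male level. Of the 69 members, 51 passed the expression filter and 18 did not. No member passed an adjusted p of 0.05 (Benjamini-Hochberg over the 12518 genes tested), nor did any with DESeq2 or limma-voom. Over all genes 11 passed, sex-linked genes included, which is 0.0879%. At an unadjusted p under 0.05 edgeR called 4 members (7.84% of 51), DESeq2 5 and limma-voom 5, beside 7.1% of all genes with edgeR, 7.42% with DESeq2 and 7.12% with limma-voom. All 4 were higher in females (4.62% of all genes were called in that direction and 2.48% in the other), and they were Unc5a, Efnb1, Efna3 and Sema3b. A share of 7.84% is near the background. The median log2 fold change was 0.05 over the 51 members, 29 of them positive, and 0.01 over all genes tested.

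Unc5a, a repulsive netrin receptor at chr13:55050772-55107379 on the plus strand of NCBIM37 (mm9), had the smallest p of the members. Its CPM was 5.22, 5.73, 9.17 and 7.92 in females and 2.73, 3.56, 2.64 and 3.55 in males. Every female library was above every male library, from 33 to 47 against 16 to 24 reads. The fold change was 2.20 (95% interval 1.49 to 3.26), or 1.14 ± 0.26 on the log2 scale (SE), with an edgeR adjusted p of 0.397 (unadjusted 0.00107). The unadjusted p stayed under 0.05 in all 17 alternative fits, including the one without female replicate 4 (log2 1.07) and the one with the glial score as a covariate (log2 1.04), while the adjusted p ranged from 0.0566 with DESeq2 to 1.00. Its exons share 34 bases with Hk3 on the other strand, which had 0 to 1 reads.

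Efnb1, the ephrin-B1 ligand, is an X-linked gene at chrX:96331469-96344330 on the plus strand. Its CPM was 20.3, 21.5, 21.9 and 22.1 in females and 10.4, 17.5, 16.5 and 15.8 in males, and the sexes did not overlap. The female libraries were tightly grouped (21.5 ± 0.771 CPM, SD, n = 4) and male replicate 1 was the lowest of the males. The fold change was 1.41 (95% interval 1.08 to 1.85), with an edgeR adjusted p of 0.630 (0.0166 unadjusted). With the glial score as a covariate the log2 difference went from 0.50 to 0.13, and with the myelinated-neuron score to 0.24, neither with an unadjusted p under 0.05.

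Efna3, the ephrin-A3 ligand at chr3:89117821-89126887 on the minus strand, was a low-count gene. It had 2.06, 3.30, 1.67 and 1.35 CPM in females and 0.409, 0.743, 0.991 and 1.63 CPM in males, or 8 to 19 against 3 to 11 reads. Of its 2434 exon bases 344 are shared with Gm15998 on the other strand, so that reads of the pair cannot be told apart there. Male replicate 4 lay within the female range, and male replicate 1 was at the 3-read floor. The log2 fold change was 1.14 ± 0.45 with an edgeR adjusted p of 0.647 (0.0291 unadjusted). It lost the unadjusted call without female replicate 2 (log2 0.83) or without male replicate 1, 2 or 3 (log2 0.88, 1.04 and 1.16). Efna3 did not pass the filter without female replicate 1 or under a filter of 10 reads in every library of a sex, and was not tested there. With the glial score as a covariate it fell to 0.35 and with the myelinated-neuron score it was 1.05, neither with an unadjusted p under 0.05.

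Sema3b, the secreted semaphorin that led its class, lies at chr9:107500005-107511560 on the minus strand. Its lowest female library (109 CPM) stood above its highest male library (103 CPM), and male replicate 1 was far below the rest at 31.7 CPM. The log2 fold change was 0.67 ± 0.29 with an edgeR adjusted p of 0.690 (0.0409 unadjusted). The unadjusted call was lost without female replicate 2, 3 or 4 (0.67, 0.70 and 0.59) and without male replicate 4 (0.64). Without male replicate 1 the difference was 0.42, and with the glial score as a covariate it was -0.08. Sema3b was at 31.7 CPM in the library with the lowest glial score (6.37) and at 109 to 143 CPM in the females, whose scores were 7.30 to 7.54. Male replicates 2, 3 and 4 were at 95.7, 103 and 69.1 CPM, with scores of 7.07, 7.25 and 7.01. Because the score did not overlap between the sexes, that fit cannot divide the difference, and the part of glial RNA in it was not tested.

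**Figure D2:**
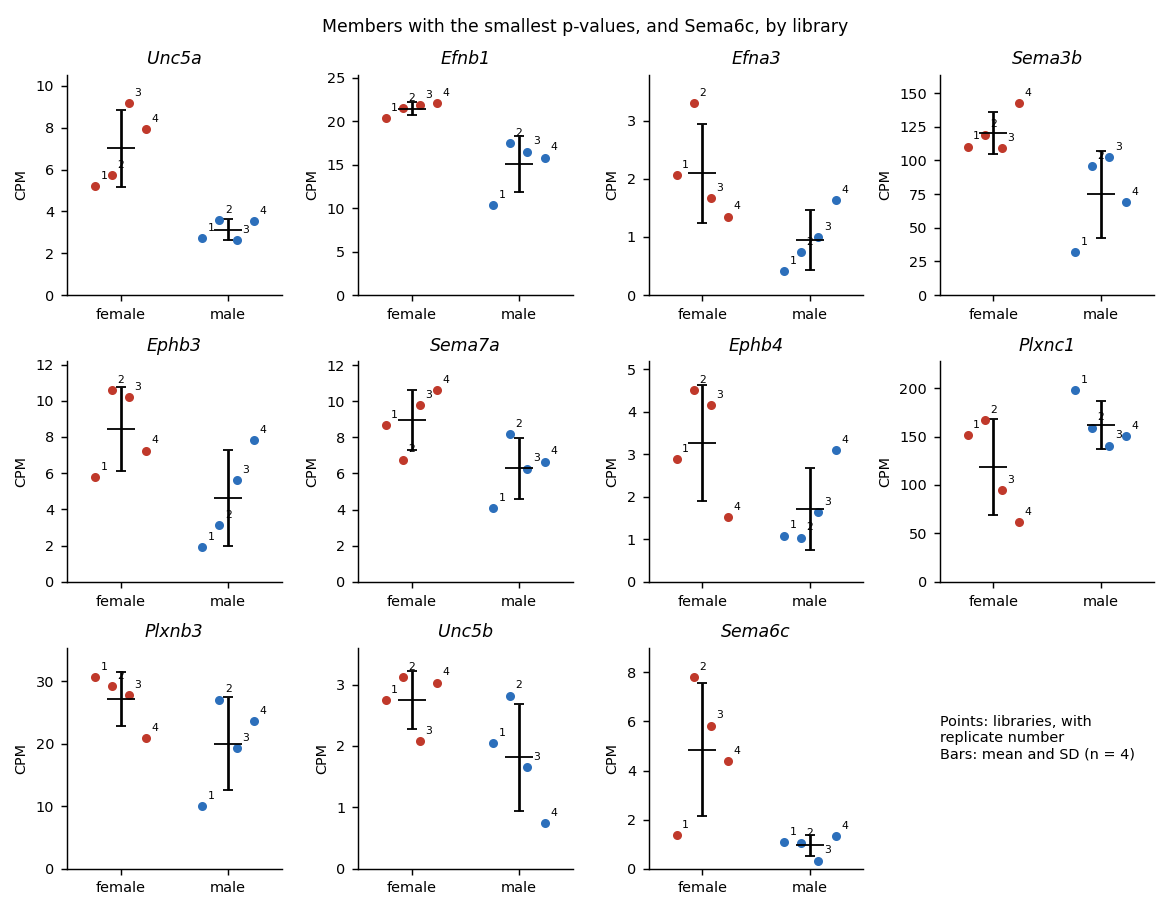
CPM of the 10 members with the smallest p-values and of Sema6c in each library (points, numbered by replicate), with the mean and SD of each sex (n = 4). The sexes are separate for Unc5a (5.22 to 9.17 against 2.64 to 3.56 CPM), Efnb1, Sema3b and Sema6c, and overlap in the other panels.

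The remaining 6 of the 10 members with the smallest p had overlapping sexes. Ephb3, an ephrin-B receptor, had 5.77, 10.6, 10.2 and 7.24 CPM in females and 1.91, 3.12, 5.61 and 7.84 CPM in males (log2 0.86 ± 0.39, edgeR adjusted p 0.690). Ephb4, a further ephrin-B receptor, had 2.89, 4.51, 4.17 and 1.52 CPM in females and 1.09, 1.04, 1.65 and 3.11 CPM in males (log2 0.90 ± 0.44, edgeR adjusted p 0.712). In both genes the highest male library was replicate 4, and leaving it out gave log2 differences of 1.24 and 1.35, each then with an unadjusted p under 0.05. Such a p was reached by Ephb3 in 7 of 17 alternatives, among them DESeq2 (0.85), limma-voom (0.99) and the fit without female replicate 1 (1.01), and by Ephb4 in 2 of 16, the other being that without female replicate 4 (1.13). With the glial score as a covariate Ephb3 was at -0.01 and Ephb4 at 0.39.

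Sema7a and its receptor Plxnc1 did not pass the test. Sema7a had 8.66, 6.77, 9.79 and 10.6 CPM in females and 4.09, 8.17, 6.27 and 6.66 CPM in males (log2 0.49 ± 0.24, edgeR adjusted p 0.712). Plxnc1 had 152, 167, 94.4 and 61.3 CPM in females and 198, 159, 141 and 151 CPM in males (log2 -0.46 ± 0.27, edgeR adjusted p 0.753). Without female replicate 4, its lowest library, the Plxnc1 difference was -0.25. An unadjusted p under 0.05 was reached by Plxnc1 without female replicate 2 (-0.68) or with the replicate number as a block (-0.55). Sema7a reached it without female replicate 2 (0.60) or male replicate 2 (0.64). With the glial score as a covariate Sema7a was at 0.17 and Plxnc1 at -0.26, and with the myelinated-neuron score at 0.14 and -0.20. Plxnb3, an X-linked B plexin, had 30.7, 29.2, 27.7 and 20.9 CPM in females and 9.96, 27.0, 19.3 and 23.7 CPM in males (log2 0.43 ± 0.27, edgeR adjusted p 0.771). Its difference was 0.21 without male replicate 1 and -0.15 with the glial score as a covariate. Unc5b, the second netrin receptor of the 10, had 2.75, 3.12, 2.08 and 3.03 CPM in females and 2.05, 2.82, 1.65 and 0.740 CPM in males (log2 0.58 ± 0.37, edgeR adjusted p 0.771).

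**Figure D3:**
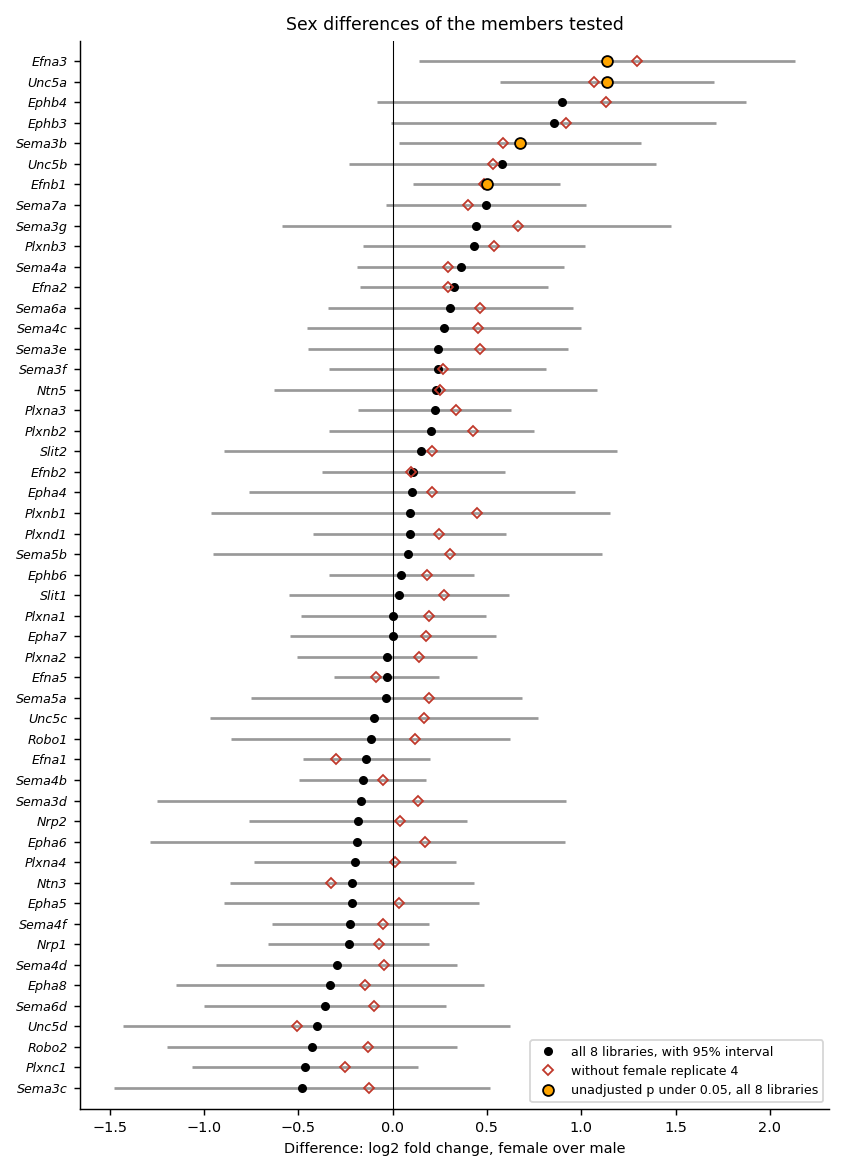
Log2 fold change, female over male, of the 51 members tested (black points, with 95% intervals from edgeR), with the values without female replicate 4 as red diamonds and orange points for the 4 members with an unadjusted p under 0.05. The values run from -0.48 for Sema3c to 1.14 for Efna3 and Unc5a, and the intervals of all but those 4 include 0.

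The sexes were also compared by whether their libraries overlapped. Of the members tested, 3 (5.88%) had no overlap between female and male CPM, against 5.52% of all genes tested (3% with females above and 2.52% with males above). These were Unc5a, Efnb1 and Sema3b, all with females above. Among the members outside the filter, Sema6c, a class 6 membrane semaphorin at chr3:94964379-94977946 on the plus strand, also separated. It had 10, 45, 28 and 26 reads in females (1.37, 7.81, 5.83 and 4.38 CPM) and 8, 7, 2 and 9 reads in males (1.09, 1.04, 0.330 and 1.33 CPM). Female replicate 1 was hardly above the males, and the other 3 females were well above them. With no filter its log2 fold change was 2.27 ± 0.52 and the edgeR adjusted p 0.343. In the 7 alternatives that tested it the adjusted p ranged from 0.0165, without female replicate 1, to 0.972. Its male libraries held at most 9 reads, so that it passed any filter through the females alone, and these values are a description. Ephb1, an ephrin-B receptor outside the filter, had 8, 12, 19 and 12 reads in females and 2, 3, 1 and 8 in males. Its sexes overlapped, with a log2 fold change of 2.05 ± 0.59 and an edgeR adjusted p of 0.590 without a filter (0.176 to 0.972 over the 6 alternatives that tested it), and the same limit applies. Its exons share 152 bases with Gm17708 on the other strand.

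By role, 3 of the 26 ligands tested (11.5%) and 1 of the 25 receptors (4%) had an unadjusted p under 0.05, beside 7.1% of all genes, and the difference between ligands and receptors was not tested. Median log2 differences were 0.13 over the ligands and 0.00 over the receptors. Without female replicate 4 such a p was found in 4 of 27 ligands and 3 of 25 receptors, beside 11.4% of all genes, and the medians were 0.27 and 0.18. With all 8 libraries no plexin (9 tested), neuropilin (2), membrane semaphorin (10), EphA receptor (5), EphB receptor (3), netrin (2), Slit (2) or Robo (2) had such a p. The limits on abundant receptors varied: Plxnc1 differed by -0.46 with a 95% interval of -1.06 to 0.13, Nrp1 by -0.23 (-0.66 to 0.19), Ephb6 by 0.05 (-0.34 to 0.43) and Nrp2 by -0.18 (-0.76 to 0.39). Efna5 was bounded most tightly of the named ligands, at -0.03 (-0.31 to 0.25). For Robo2, which is also abundant, the interval ran from -1.20 to 0.34 and for Epha6 from -1.29 to 0.91, so that in both a change of 1 log2 unit in favour of males could not be told from none with all 8 libraries. Without female replicate 4 the differences were -0.13 ± 0.11 for Robo2 and 0.17 ± 0.28 for Epha6, which changed sign.

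Promoters are shown for the members with an unadjusted p under 0.05 or with separate sexes that the RefSeq table holds, to set their sequences side by side, and 59 of the 69 members had an entry. Those named without one are Sema3b, Sema3f, Sema6a, Efnb3, Ntn1, Dcc, Unc5d, Slit1, Plxna1 and Plxna4. Each run below holds the 250 bases before the annotated start, read 5′ to 3′ in the direction of the gene from GRCm38.p6, a different build from that of the counts, and capitals mark GGGCGG or its reverse complement CCGCCC, a GC-box core. Where 2 starts are listed (Efna3 and Sema6c) the first is shown. The windows are chr13:54949161-54949410 (plus) for Unc5a, chrX:99135811-99136060 (plus) for Efnb1, chr3:89322940-89323189 (minus) for Efna3 and chr3:95160170-95160419 (plus) for Sema6c.
Unc5a: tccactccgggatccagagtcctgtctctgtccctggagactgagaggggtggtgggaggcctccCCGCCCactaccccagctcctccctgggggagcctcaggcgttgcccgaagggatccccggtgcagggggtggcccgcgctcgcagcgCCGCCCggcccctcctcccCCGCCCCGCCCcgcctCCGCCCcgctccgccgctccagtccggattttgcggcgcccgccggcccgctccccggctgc
Efnb1: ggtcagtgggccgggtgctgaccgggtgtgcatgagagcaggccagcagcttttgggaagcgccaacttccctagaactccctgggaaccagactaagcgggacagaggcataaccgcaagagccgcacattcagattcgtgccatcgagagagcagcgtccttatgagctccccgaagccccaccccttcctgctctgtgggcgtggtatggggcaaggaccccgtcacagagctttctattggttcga
Efna3: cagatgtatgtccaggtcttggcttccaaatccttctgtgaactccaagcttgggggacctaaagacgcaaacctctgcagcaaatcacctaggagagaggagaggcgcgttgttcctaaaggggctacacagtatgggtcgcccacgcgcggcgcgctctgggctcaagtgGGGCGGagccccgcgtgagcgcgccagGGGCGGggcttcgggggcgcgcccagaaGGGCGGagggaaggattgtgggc
Sema6c: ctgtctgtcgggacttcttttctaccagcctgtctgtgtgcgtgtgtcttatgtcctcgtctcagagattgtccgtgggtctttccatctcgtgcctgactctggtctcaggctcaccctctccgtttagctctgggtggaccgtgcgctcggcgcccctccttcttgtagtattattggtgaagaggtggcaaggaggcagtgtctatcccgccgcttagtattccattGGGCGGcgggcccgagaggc
Unc5a held 5 matches, one pair of which overlaps, Efna3 3, Sema6c 1 and Efnb1 none. Such matches were common among the members as a whole: 43 of 59 windows (72.9%) held at least 1, against 32.9% of the 27025 symbols in the table. The members' windows were also richer in G and C (median 64.8% against 52%) and in CG pairs (16 against 6). TATAAA, read on both strands, was in 3.39% of members' windows and 13.0% of all, and ACAAAG, a core of SOX sites, in 10.2% and 16.5%. A match is a description of the letters and not a bound site.

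Other genes of the pathway were read in the same fit. Of 27 further cues and co-receptors in the files, 25 were tested, 2 had an unadjusted p under 0.05 (8%, near the 7.1% of all genes) and none an edgeR adjusted p under 0.05, and the median log2 difference was -0.07. The smallest p belonged to Rtn4rl2, a Nogo receptor homologue, with 2.75, 14.2, 22.5 and 19.0 CPM in females and 4.78, 5.20, 4.62 and 7.99 CPM in males. Its log2 fold change was 1.34 ± 0.49 (edgeR adjusted p 0.641) and female replicate 1 lay below all males. Lingo1, a co-receptor of the Nogo receptor, followed at 0.33 ± 0.15 and Gpc1, a glypican that binds Slits, at 0.41 ± 0.19 (edgeR adjusted p 0.690 for each).

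Of 45 intracellular effectors in the files, 43 were tested, 4 had an unadjusted p under 0.05 (9.30%, beside 7.1% of all genes), 2 in each direction (4.62% of all genes were higher in females and 2.48% in males), and none passed the adjusted threshold in edgeR, with a median of -0.01. Limk1, the kinase of cofilin, had 83.6, 274, 312 and 241 CPM in females and 115, 120, 121 and 147 CPM in males. Its log2 fold change was 0.84 ± 0.32 (edgeR adjusted p 0.647), with female replicate 1 again below the males. Chn1, a chimaerin that acts downstream of EphA4, differed by -0.26 ± 0.11 (edgeR adjusted p 0.690).

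Female replicate 4 stood apart from the other females in the members, and it did so along exon length. It was the lowest of the 8 libraries for 28 of the 51 members tested (54.9%), against 31.5% of all genes tested, and the highest for 6 (11.8%), against 31.4%. The median member lay 0.76 log2 units below the mean of the other 3 females, where the median gene was at 0.00. Members have long exons, with a median of 6328 bases against 3832.5 for all genes. Of the 34 members over 5000 bases, 26 were lowest in female replicate 4, and of the 17 shorter ones 2 were. Among all genes over 5000 bases the median deviation was -0.56, against -1.05 for the members of that length. Spearman's rho between exon length and the deviation was -0.58 over the 51 members and -0.55 over 12374 genes, which share the library and are not independent.

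Single genes show the size of this gap. Robo2 had 241 reads in female replicate 4 and 615 to 1358 in the other females, Sema3c, a secreted semaphorin, 14 against 87 to 135, and Plxnb1 5 against 30 to 50. The exons of Robo2 span 16516 bases. Efna1, with 1830 bases, went the other way and had its highest female level there (105 CPM against 68.7 to 75.3). Whether RNA quality set this pattern was not tested.

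**Figure D4:**
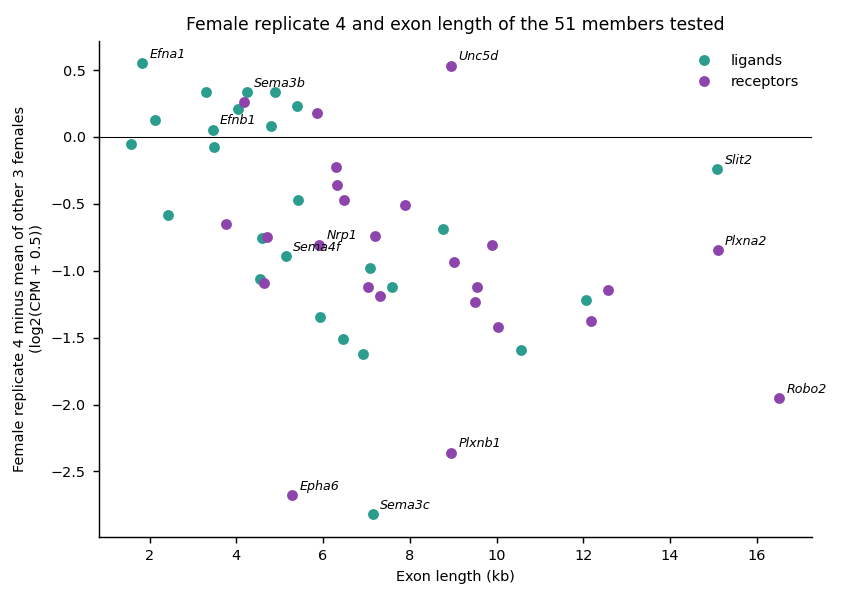
Deviation of female replicate 4 from the mean of the other 3 females, in log2(CPM + 0.5), against exon length in kb for the 51 members tested, with ligands in green and receptors in purple. The lowest points are Sema3c (-2.82), Epha6 (-2.68) and Plxnb1 (-2.36), followed by Robo2 (-1.95), the longest at 16.5 kb, and members up to 5 kb lie on both sides of 0, from Efna1 (0.55) to Ephb4 (-1.09).

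The median log2 difference of the members was 0.05 with all 8 libraries. Leaving out any library but female replicate 4 gave -0.07 (without female replicate 1) to 0.12 (without male replicate 3). Without female replicate 4, 39 of the 52 members tested were positive and the median was 0.20, against 0.01 over all genes. The genes of that comparison were not matched for exon length. An unadjusted p under 0.05 was reached by 7 members (13.5%, beside 11.4% of all genes): Unc5a, Efnb1, Efna3, Ephb4, Plxnb2 and Slit1 higher in females (5.7% of all genes in that direction) and Efna1 higher in males (5.72%). None passed the edgeR adjusted threshold. Plxnb2, a B plexin, had 41.9, 38.7 and 42.5 CPM in female replicates 1 to 3, 17.7 CPM in female replicate 4 and 27.4 to 35.2 CPM in males, so that its log2 difference went from 0.21 to 0.42. Slit1 went from 0.03 to 0.27 and Efna1 from -0.14 to -0.30. Sema3b lost its call (0.59), and Robo2 went from -0.43 to -0.13.

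Several marker scores moved with the sex of the library. The mean glial score was 7.40 in females and 6.93 in males, the fibroblast score 3.09 and 2.57, and the myelinated-neuron score 6.71 and 6.10, and only the glial ranges did not overlap among these 3. The skeletal muscle score, at 0.585 to 0.794 in females and 0.322 to 0.453 in males, was also separate. Its markers lay near the 3-read floor, and the highest of them, Acta1, was at 0.444 to 2.36 CPM. The peptidergic-neuron score leaned the other way, with means of 8.47 and 8.79 and overlapping ranges. Male replicate 1 was the lowest library for 10 of the 51 members (Efna3, Efnb1, Ephb3, Plxnb3, Sema3b, Sema3g, Sema4a, Sema6a, Sema7a and Slit2), a share near the 17.6% of all genes. With the glial score as a covariate, Unc5a alone of the members had an unadjusted p under 0.05, beside 2.35% of all genes in that fit, and the same held with the myelinated-neuron score, beside 3.02% of all genes. Under the glial covariate Sema3b went from 0.67 to -0.08, Ephb3 from 0.86 to -0.01 and Plxnb3 from 0.43 to -0.15 on the log2 scale, while Efna3 went from 1.14 to 0.35 and Efnb1 from 0.50 to 0.13. Under the myelinated-neuron covariate Sema3b was at 0.18 and Plxnb3 at 0.06. Because the score did not overlap between the sexes, a difference in glial RNA and a difference between the sexes cannot be told apart for any member, these 5 included.

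**Figure D5:**
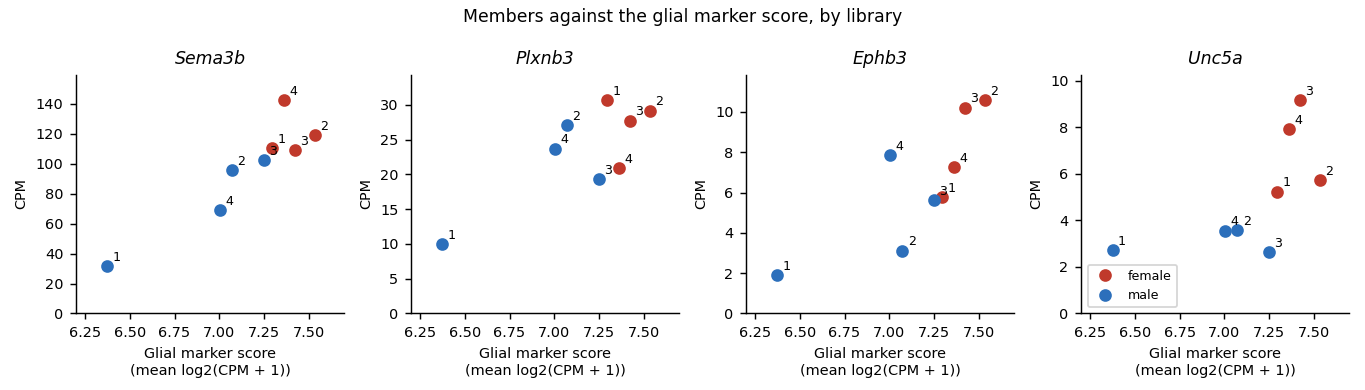
CPM of Sema3b, Plxnb3, Ephb3 and Unc5a against the glial marker score of each library (mean of log2(CPM + 1) over 14 genes), with red points for females and blue points for males, numbered by replicate. Male replicate 1, at a score of 6.37, is lowest for Sema3b, Plxnb3 and Ephb3, while the male values of Unc5a stay between 2.64 and 3.56 CPM at all scores.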

How the data were processed

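RNA of 8 sorted neuron samples (4 female, 4 male) had been amplified and sequenced with the Smart-seq2 method. Per the labels and the methods of the study, the authors aligned reads to mm9 with TopHat2 and counted them per gene with HTSeq (for demultiplexing, the processing notes list bcl2fastq and the methods name CASAVA); the deposited values are raw counts, with no normalization. Tool versions, annotation release and strand option were not given in the sources used here. PCR copies cannot be told from separate molecules, so the 3-read floors cover counting error only, while the 95% intervals of sex differences come from the edgeR fit and include the spread between samples. Rows that named no gene were left out (reads outside features were 57.8 to 60.5% of uniquely placed reads).

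Members were found by symbol, and levels are CPM over gene reads, per kb of exon from GENCODE M1 (NCBIM37) where genes are compared. For the sexes, edgeR 4.0.16 (R 4.3.3) fitted a quasi-likelihood model of sex alone to the counts, after TMM scaling and the default expression filter, with Benjamini-Hochberg adjustment over 12518 genes; the script was tested on simulated data. DESeq2 1.42.0 and limma 3.58.1 (voom) were alternatives, as were other scalings, filters, marker covariates and leaving out each library. Values in every library are given for the 10 members with the smallest p, the leader of each of 12 role groups and members in calls of 5 or fewer; Efna5, Plxnb1, Plxnb2 and Sema3c were singled out after their values were seen. The members, lists and alternatives were chosen with earlier results of these data known. Motifs were searched on both strands, overlaps allowed. Of the other pathway genes, the 3 with the smallest p in each list were to be named, and 1 of them is not reported here.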

Additional observations from a re-analysis of the deposited data

Results flagged for a closer look

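Within sex groups of 4 libraries, 38 groups of member values were checked for a library far from the rest by Dixon's test at the 95% level, and chance alone would flag about 1.9 of them. In 2 groups a library stood out, and it was female replicate 4 in both. Sema4f had 105.6 CPM in female replicate 4 and 192 to 199 CPM in the other females, a gap of 0.924 of the whole range. Nrp1 had 59.5 CPM there and 101 to 108 CPM in the other females, a gap of 0.857 of the range. The sex difference of Sema4f was -0.22 on the log2 scale with all libraries and -0.05 without female replicate 4, and that of Nrp1 was -0.23 and -0.07.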

How the results depend on the processing

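The main counts were 0 members with an adjusted p under 0.05, 4 with an unadjusted p under 0.05 (4 higher in females, 0 in males) and 3 with separate sexes. Without a filter on low counts 7 members had such a p (10.1%, beside 6.46% of all genes), all 7 higher in females, with Sema6c and Ephb1, whose male counts are near the floor, among them. With the glial or the myelinated-neuron score as a covariate 1 did, higher in females (2.35 and 3.02% of all genes). Sema3b (-0.083), Ephb3 (-0.0064) and Plxnb3 (-0.15) changed sign with the glial score. Leaving out each library in turn gave 3 to 7 members with an unadjusted p under 0.05, 3 to 7 of them higher in females and 0 to 1 higher in males, 4 to 8 members with separate sexes and 0 to 1 with an adjusted p under 0.05 (Sema6c, without female replicate 1, which passed the filter through its females alone). Over all genes the share with an unadjusted p under 0.05 moved from 4.66% to 11.4%. The counts of 7 came without female replicate 4 (13.5% of members and 11.4% of all genes) and without male replicate 4 (13.0% and 4.93%, Sema6c and Ephb1 included). Separate sexes were found in 5 members without female replicate 1 (12.03% of all genes) or 3 (8.30%), 7 without male replicate 2 (8.05%) and 8 without female replicate 4 (11.8%) or male replicate 4 (7.58%). With the replicate number as a block, 5 members (9.80%, beside 6.92% of all genes) had an unadjusted p under 0.05, of which 1, Plxnc1 (-0.55), was higher in males. The numbers did not pair the samples: same-numbered samples correlated at 0.0939, -0.109, 0.144 and 0.00465. DESeq2, limma-voom, DESeq2 size factors in edgeR, library size alone and a 10-read filter gave counts of 4 to 5 (7.12 to 7.44% of all genes): Ephb3 was added with DESeq2, limma-voom and library size alone, and the 10-read filter left Efna3 untested and gained Sema6c. Efna3 lost its call under the block and Ephb3 gained one. The leader of each role group was kept in 12 of 12 groups with TMM scaling and without any one library, and in 11 with the longest transcript as length, where Epha5 replaced Epha6. The expression filter kept 18 members, 4 of them with at most 3 reads in any library, out of the main comparison.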
